A study of Homo sapiens with 5 samples.

Results

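The ZNF genes of chromosome 19 are the protein-coding genes whose symbol is ZNF followed by a number. By this rule, 240 of the 19970 protein-coding genes on chromosomes 1 to 22 and X in the RefSeq annotation of assembly GRCh38.p14 were members. The rule used only symbols and positions, not the calls, and the proteins of the members were not analysed here. Start sites had been called from PRO-seq (precision run-on sequencing), in which engaged RNA polymerases in isolated nuclei add biotin-labelled nucleotides and the labelled nascent RNA is captured and sequenced. The study used HUDEP-2 cells, an immortalised line of human erythroid progenitors. It comprised 3 single-cell clones, cut by the guide sg1617 in the erythroid enhancer of BCL11A, which carried a 1 bp insertion, a 13 bp deletion and a 15 bp deletion, and 2 libraries of unedited wild-type cells. Each edited line was 1 clone with 1 library. The 2 call lists, 1 for each strand, came from 1 alignment named for HUDEP-2 without an edit. They had no column per library, so edited and unedited cells could not be compared, there were no replicates, and how many reads support a call is unknown.

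Most zinc finger proteins of this kind carry tandem C2H2 fingers that bind DNA, and many also carry a KRAB domain. The KRAB domain recruits TRIM28 (also called KAP1), which brings the histone methyltransferase SETDB1, and the trimethylated histone H3 lysine 9 that results silences the bound locus. Many of these proteins bind transposable elements. On chromosome 19 the genes lie in tandem clusters that arose by duplication, and near neighbours can therefore be close copies of each other. Reads that fit several copies equally well cannot be placed, and how such reads were treated is not given in the sources used here.

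The promoters that carried the contrast between clusters are printed first. Each is written 5′ to 3′ on the strand of the named gene, from RefSeq and assembly GRCh38.p14, and runs from upstream of the annotated start to 49 bases after it unless stated otherwise. The first set comes from the ZNF101 to ZNF254 cluster and was chosen because the promoters are close copies, of which some were called and others were not. Capitals mark CCAAT and, in called members, the called base with the base after it. In ZNF714, ZNF431 and ZNF430 the called base is the G of the capital GT. ZNF208, ZNF91 and ZNF93 had no call, and the same letters stand there in lower case. The regions are chr19:21082093-21082252 for ZNF714 (plus strand), chr19:21141930-21142089 for ZNF431 (plus), chr19:21020547-21020706 for ZNF430 (plus), chr19:22010894-22011053 for ZNF208 (minus), chr19:23395422-23395581 for ZNF91 (minus) and chr19:19900836-19900995 for ZNF93 (plus).
ZNF714: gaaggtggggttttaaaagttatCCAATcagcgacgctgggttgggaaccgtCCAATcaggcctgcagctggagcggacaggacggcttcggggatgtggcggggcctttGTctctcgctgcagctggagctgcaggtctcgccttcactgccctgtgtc
ZNF431: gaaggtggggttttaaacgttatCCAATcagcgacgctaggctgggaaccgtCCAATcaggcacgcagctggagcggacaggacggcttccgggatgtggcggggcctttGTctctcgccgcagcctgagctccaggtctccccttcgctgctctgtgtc
ZNF430: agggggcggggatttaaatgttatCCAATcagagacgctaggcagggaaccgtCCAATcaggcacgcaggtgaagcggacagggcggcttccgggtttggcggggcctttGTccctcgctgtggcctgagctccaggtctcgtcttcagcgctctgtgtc
ZNF208: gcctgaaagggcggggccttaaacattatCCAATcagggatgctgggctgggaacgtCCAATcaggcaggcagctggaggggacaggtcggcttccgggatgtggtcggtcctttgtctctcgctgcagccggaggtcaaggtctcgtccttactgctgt
ZNF91: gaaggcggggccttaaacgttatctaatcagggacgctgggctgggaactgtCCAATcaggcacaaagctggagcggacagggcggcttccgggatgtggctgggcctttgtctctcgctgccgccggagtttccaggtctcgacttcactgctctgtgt
ZNF93: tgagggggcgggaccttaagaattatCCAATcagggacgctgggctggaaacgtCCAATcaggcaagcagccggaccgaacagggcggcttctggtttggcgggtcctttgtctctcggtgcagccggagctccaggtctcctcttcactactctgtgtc

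The second set shows close copies from the ZNF175 to ZNF331 cluster that were called, neither with a call on the other strand upstream. Capitals mark the called base and the base after it. ZNF701 lies at chr19:52570177-52570336 and ZNF845 at chr19:53333639-53333798, both on the plus strand.
ZNF701: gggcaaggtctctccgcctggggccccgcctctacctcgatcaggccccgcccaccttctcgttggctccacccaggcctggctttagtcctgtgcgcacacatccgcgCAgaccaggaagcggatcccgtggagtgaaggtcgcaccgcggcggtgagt
ZNF845: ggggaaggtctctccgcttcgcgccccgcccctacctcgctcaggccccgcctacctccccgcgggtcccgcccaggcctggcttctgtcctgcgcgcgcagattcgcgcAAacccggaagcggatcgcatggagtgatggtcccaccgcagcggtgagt

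The third set shows places where a pair of members is read in opposite directions from a shared stretch. Capitals mark the called base of each gene of the pair with the next base in its own direction of transcription. The first pair of capitals belongs to the gene on the minus strand and the second to the gene on the plus strand. The stretch between ZNF529 (minus) and ZNF382 (plus) lies at chr19:36605213-36605362 and that between ZNF790 (minus) and ZNF345 (plus) at chr19:36850245-36850394. The stretch at ZNF345 ends 29 bases after the annotated start. Both are printed on the plus strand.
ZNF382: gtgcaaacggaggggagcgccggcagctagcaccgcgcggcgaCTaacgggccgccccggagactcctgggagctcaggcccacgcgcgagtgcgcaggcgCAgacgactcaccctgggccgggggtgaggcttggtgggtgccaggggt
ZNF345: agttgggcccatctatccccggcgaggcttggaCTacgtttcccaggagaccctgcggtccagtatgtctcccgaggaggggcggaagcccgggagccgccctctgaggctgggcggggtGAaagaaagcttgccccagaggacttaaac

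The last set comes from the ZNF414 to ZNF846 cluster and was chosen for an 8-letter sequence, TGACGTCA, which is the full cyclic AMP response element. Capitals mark it and, where the call lies within the printed stretch, the called base with the base after it. The regions are chr19:9621183-9621342 for ZNF561, chr19:9675051-9675210 for ZNF562 and chr19:9584455-9584614 for ZNF121, all on the minus strand. The call of ZNF562 lay 60 bp after its annotated start and is outside the stretch shown.
ZNF561: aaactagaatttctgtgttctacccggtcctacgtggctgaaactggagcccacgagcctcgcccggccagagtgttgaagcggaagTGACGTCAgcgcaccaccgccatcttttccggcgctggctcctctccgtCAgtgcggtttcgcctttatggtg
ZNF562: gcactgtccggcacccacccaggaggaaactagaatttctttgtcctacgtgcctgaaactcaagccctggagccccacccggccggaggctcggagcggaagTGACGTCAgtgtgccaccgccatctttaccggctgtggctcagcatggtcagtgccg
ZNF121: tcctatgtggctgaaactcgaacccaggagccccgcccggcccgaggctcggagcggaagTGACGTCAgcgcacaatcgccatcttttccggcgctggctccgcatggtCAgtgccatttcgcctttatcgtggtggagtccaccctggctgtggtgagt

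Both lists together held 28283 calls, 14124 of the forward strand and 14159 of the reverse. Chromosome 19 held 2285 of the 28159 calls on chromosomes 1 to 22 and X. The labelled cell type was checked on marker genes. All 12 erythroid markers were called at their start, and 0 of 21 markers of lymphoid, myeloid, megakaryocytic, neuronal and hepatic cells were called. The intervals given below are Wilson 95% intervals that cover counting over genes, which are not replicates. They carry no error between libraries.

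Most ZNF genes of chromosome 19 were called in these erythroid cells, a larger share than of protein-coding genes as a whole. A member counted as called when a call on its own strand lay within 500 bp of an annotated start, and such a call is named a promoter call. There were 154 called members of 240, or 64.2% (95% interval 57.9 to 70.0). Among all protein-coding genes, 45.5% were called (interval 44.8 to 46.2), and among the other protein-coding genes of chromosome 19, 46.5% (43.7 to 49.3). The interval of the members does not reach either of these shares. The 237 ZNF-number genes on other chromosomes had a share of 67.9% (61.7 to 73.5), and their interval overlaps that of the members.

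Of the 86 members that were not called, 76 had no call of either strand from 500 bp before the gene to 500 bp after it. These members without any call made up 31.7% of all members, against 46.3% for all protein-coding genes. Another 10 uncalled members had calls elsewhere. ZNF548 and ZNF17 each had a call on the opposite strand 150 bp upstream of their outer start and none on their own strand. ZNF85 had a single own-strand call at 20947785, which lay 24534 bp past its start and 2912 bp before its end. ZNF575 held antisense calls 2025 and 2342 bp inside the gene. ZNF30, ZNF610 and ZNF600 held calls but have no tabulated strand, and for such genes only the outer ends were searched. ZNF30 held a forward call at 34926910 and a reverse call at 34926834, inside the gene. Of members without a tabulated strand 43.3% were called, against 67.1% of those with one. Over all protein-coding genes these shares were 33.1% and 48.8%.

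Called and uncalled members were not spread evenly along the chromosome. Members no more than 500 kb from their neighbour were joined into clusters, which gave 10 clusters of at least 5 members with 228 members in all and left 12 members outside. Clusters are named here by their first and last member. The share called was highest in the ZNF565 to ZNF573 cluster (chr19:36182060-37779586), where 21 of 24 members were called, or 87.5% (69.0 to 95.7). It was lowest in the ZNF101 to ZNF254 cluster (chr19:19668153-24129968), where 12 of 37 were called, or 32.4% (19.6 to 48.5). The intervals of these clusters do not overlap.

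The other clusters with 20 or more members lay between these shares. The ZNF264 to ZNF446 cluster (chr19:57191500-58489533), the last before the end of the long arm, had 32 of 41 members called, or 78.0% (63.3 to 88.0). The ZNF575 to ZNF180 cluster (chr19:43530835-44500522) had 18 of 23 called, or 78.3% (58.1 to 90.3), and the ZNF175 to ZNF331 cluster (chr19:51571283-53580269) 26 of 39, or 66.7% (51.0 to 79.4). The ZNF653 to ZNF791 cluster (chr19:11483429-12633834) had 10 of 25 called, or 40.0% (23.4 to 59.3), and its interval overlaps that of the ZNF101 to ZNF254 cluster. Neighbours in this order do not differ beyond their intervals.

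The smaller clusters had wide intervals. In the ZNF414 to ZNF846 cluster (chr19:8509678-9786160) 10 of 13 members were called, or 76.9% (49.7 to 91.8), and in the ZNF628 to ZNF835 cluster (chr19:55476617-56671757) 10 of 16, or 62.5% (38.6 to 81.5). The ZNF302 to ZNF792 cluster (chr19:34675979-34964229) had 4 of 5 called, and the ZNF554 to ZNF77 cluster (chr19:2819868-2944971) 2 of 5. Outside clusters 9 of 12 members were called. Among those outside, ZNF507 was called 1 bp before its start, and ZNF536, which encodes a repressor of neuronal differentiation, had no call.

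**Figure D1:**
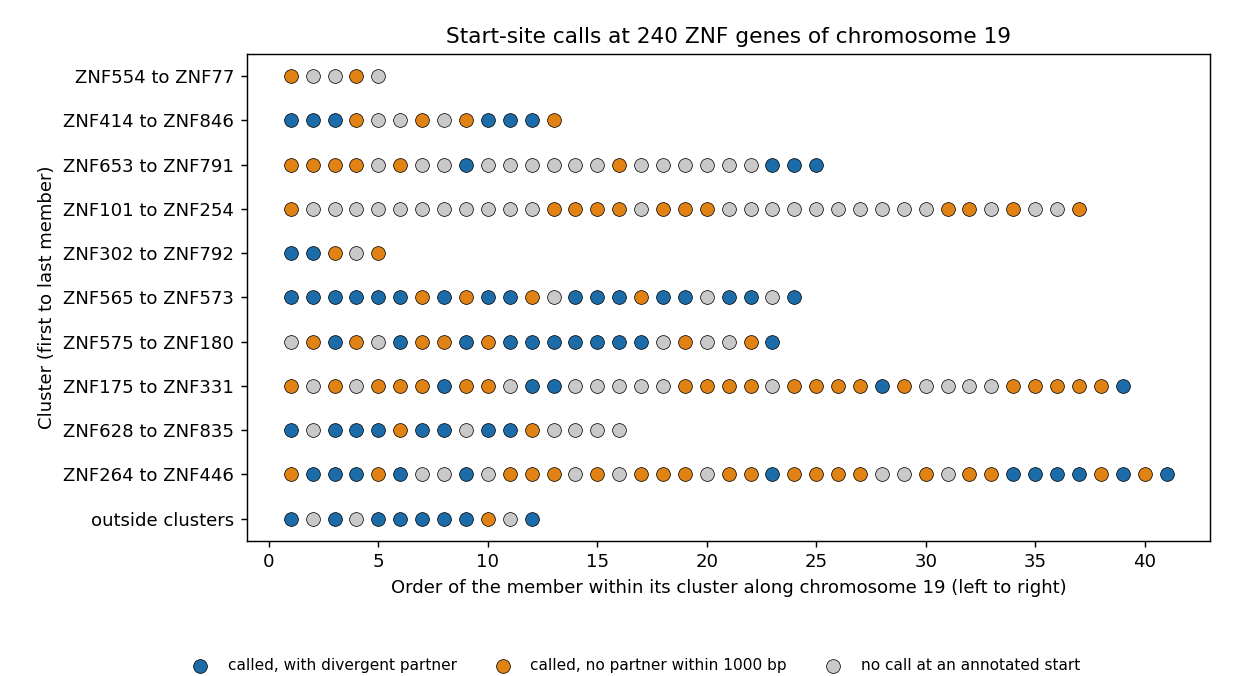
Each dot is 1 of the 240 members, placed by its order within its cluster (horizontal axis, rank) in 1 row per cluster (vertical axis, named by first and last member). Blue dots are called members with a divergent partner, orange dots called members without one and grey dots members with no call at an annotated start. The ZNF101 to ZNF254 row is grey and orange with no blue dot, and the ZNF565 to ZNF573 row is mostly blue.

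Runs of called and of uncalled neighbours were counted, and no expected length was computed. The longest run of neighbours that were all called had 13 members, ZNF792 to ZNF829. It crosses from the ZNF302 to ZNF792 cluster into the ZNF565 to ZNF573 cluster. The longest uncalled run had 11, ZNF14 to ZNF85, in the ZNF101 to ZNF254 cluster. That cluster spans 4462 kb and held 34 calls of any kind, or 7.62 per Mb. The ZNF264 to ZNF446 cluster, with 1298 kb, held 79 calls, or 60.9 per Mb, and the ZNF565 to ZNF573 cluster 31.9 per Mb. Members are also spaced more widely in the ZNF101 to ZNF254 cluster, with 8.29 members per Mb, against 31.6 per Mb in the ZNF264 to ZNF446 cluster and 15.0 per Mb in the ZNF565 to ZNF573 cluster.

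In the ZNF101 to ZNF254 cluster, 24 of the 25 uncalled members had no call at all in or near the gene. They included ZNF91, which is known to repress SVA elements, and ZNF93, which is known to repress L1 elements of the L1PA families. ZNF43, ZNF208, ZNF257 and ZNF729 also had no call. The called members of this cluster were ZNF101, ZNF430, ZNF714, ZNF431, ZNF708, ZNF493, ZNF429, ZNF100, ZNF730, ZNF724, ZNF675 and ZNF254. Of these, 7 lay close together between ZNF430 and ZNF100, with only ZNF738 uncalled among them.

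Several members with a known target or function were called outside that cluster. ZNF417 and ZNF587, close paralogs known to repress HERV-K elements, were called with an offset of -18 bp (ZNF417, at 57916610) and at the annotated base (ZNF587, at 57849859). ZNF274, which binds the 3′ ends of other zinc finger genes and recruits SETDB1, was called at 58183060, an offset of -1 bp. ZNF224 was called at its annotated base, 44094361. ZNF331, an imprinted gene with 7 annotated starts, was called at 53521035, 21 bp after an inner one. ZNF568, whose mouse counterpart represses a placental transcript of Igf2, was not called, and neither was ZNF44.

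The machinery that the KRAB domain acts through was called nearly throughout. Of a list of 29 corepressor and heterochromatin genes, 26 were called and 19 of these had a divergent partner, against 45.5% called among all protein-coding genes. TRIM28 itself, near the end of chromosome 19, was called 393 bp after its annotated start. SETDB1, CBX1 and SUV39H1 were not called at an annotated start. SETDB1 and SUV39H1 had no call within 500 bp of the gene or inside it, and CBX1, a heterochromatin protein 1 gene, had 1 call on the forward strand.

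**Figure D2:**
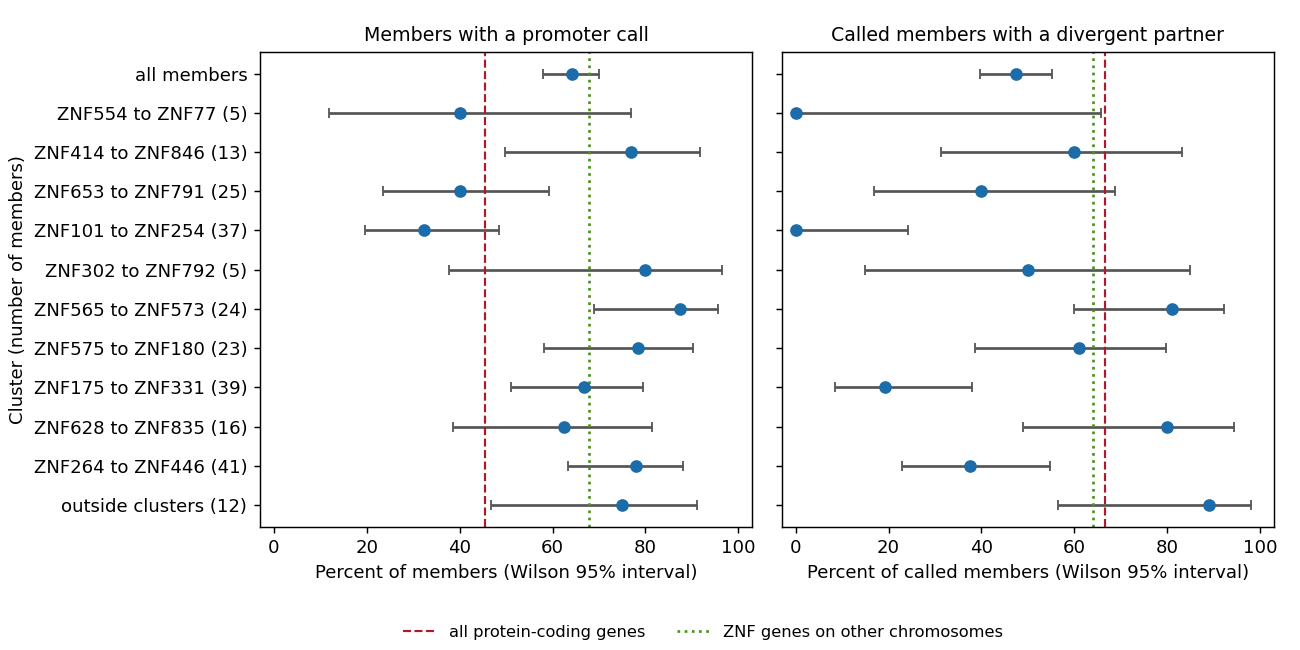
Points give the percent of members called (left, horizontal axis in percent) and the percent of called members with a divergent partner (right), for all members and for each cluster (vertical axis, number of members in brackets), and bars are Wilson 95% intervals. The dashed line marks all protein-coding genes (45.5% and 66.5%) and the dotted line ZNF-number genes on other chromosomes (67.9% and 64.0%). The clusters ZNF101 to ZNF254, ZNF175 to ZNF331 and ZNF264 to ZNF446 lie below both lines for pairing, with intervals that reach neither.

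A smaller share of called ZNF genes of chromosome 19 than of other called genes had a divergent partner. No test of the difference was made, and the intervals are given instead. A promoter call counted as paired if the opposite strand had a call at most 1000 bp upstream of it. That is the arrangement of an active promoter with upstream antisense transcription or of neighbouring genes read away from each other. In each gene only the promoter call nearest an annotated start was judged. Among called members, 73 of 154 were paired, or 47.4% (39.7 to 55.3). The share was 66.5% among all called protein-coding genes (65.5 to 67.4), 66.6% among those of the rest of chromosome 19 (62.6 to 70.4) and 64.0% among called ZNF-number genes on other chromosomes (56.3 to 71.0). The interval of the members lies below these 3 intervals.

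Pairing also differed between clusters, and the low share did not hold in all of them. The intervals of the ZNF101 to ZNF254, ZNF175 to ZNF331 and ZNF264 to ZNF446 clusters lie below the 66.5% of all called protein-coding genes. Those of the other clusters with 10 or more called members reach it. None of the 12 called members of the ZNF101 to ZNF254 cluster was paired, which allows a share of up to 24.2% by the interval. In the ZNF175 to ZNF331 cluster 5 of 26 were paired, or 19.2% (8.51 to 37.9). The ZNF565 to ZNF573 cluster had 17 of 21 paired, or 81.0% (60.0 to 92.3), and the ZNF628 to ZNF835 cluster 8 of 10. The ZNF264 to ZNF446 cluster, which had nearly 4 in 5 members called, had 12 of 32 paired, or 37.5% (22.9 to 54.7). The ZNF575 to ZNF180 cluster had 11 of 18 paired (61.1%), the ZNF414 to ZNF846 cluster 6 of 10, and the ZNF653 to ZNF791 cluster 4 of 10. Outside clusters 8 of 9 called members were paired. Pairing and the share called thus did not go together in every cluster.

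Paired calls lay close to each other. The median distance was 153 bp in members (quartiles 101 and 220), against 177 bp over all called protein-coding genes (118 and 279) and 234 bp over those of the rest of chromosome 19 (140 and 369). The smallest distance was 39 bp, at ZNF432, and the largest 658 bp, at ZNF473, whose partner lay at the start of VRK3. The ZNF414 to ZNF846 cluster had the shortest median distance, 70.5 bp over 6 pairs, and the ZNF264 to ZNF446 cluster the longest, 218 bp over 12. ZNF846, counted as unpaired, had another promoter call at 9768625, on the minus strand, with a plus-strand call upstream at 9768789. At the judged call, the unpaired members had no partner just beyond the limit. Their median distance to the nearest opposite call upstream was 54268 bp, with a minimum of 2904 bp, and in the ZNF101 to ZNF254 cluster the median was 196705 bp.

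Most partners of paired members lay at no annotated start of a gene. In 43 of 73 paired members (58.9%) this was so, against 54.5% of all paired protein-coding genes. In 13 the partner lay at the start of a gene that is not protein-coding, such as ZNF8-DT, ZNF132-DT and ZNF567-DT, transcripts named as divergent to their ZNF gene. Another member was the partner in 12, and another protein-coding gene in 5. Together these 17 made up 23.3% of paired members (15.1 to 34.2), against 28.4% of all paired protein-coding genes, a share within the interval. The 5 were ZNF558 with MBD3L1 (44 bp between the calls), ZNF302 with SCGB2B2 (161 bp), ZNF526 with DEDD2 (196 bp), ZNF473 with VRK3 (658 bp) and ZNF524 with FIZ1 (200 bp). The annotated right-hand end of SCGB2B2 is shared with the pseudogene SCGB1B2P, and the call near it cannot be assigned to one of them.

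The ZNF565 to ZNF573 cluster held 10 of the 12 members whose partner was another member. Its genes are in part arranged head to head, with calls on both strands between their starts. ZNF529 was called at 36605257 on the minus strand and ZNF382 at 36605314 on the plus strand, 57 bp apart, as the printed stretch shows. ZNF790 and ZNF345 were called 86 bp apart, at 36850279 and 36850365. ZNF571 and ZNF540 had calls 142 bp apart, ZNF569 and ZNF570 152 bp apart, and ZNF565 and ZNF146 472 bp apart. ZNF146 is known as a member made almost wholly of fingers, without a KRAB domain. The remaining pair, ZNF490 and ZNF791 in the ZNF653 to ZNF791 cluster, had calls 196 bp apart.

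Head-to-head annotation did not always come with calls on both strands. Among members of tabulated strand there were 7 pairs whose nearest annotated starts, outer or inner, faced away from each other 22 to 107 bp apart, and in 6 of them both genes were called. In some of them the genes overlap, and the start is an inner one. ZNF571 has no tabulated strand, so its pair with ZNF540 is not among the 7. In the pair of ZNF461 and ZNF567 the call of ZNF567 lay at an inner start, 20774 bp from that of ZNF461. There it was paired with ZNF567-DT. In the pair of ZNF829 and ZNF568 only ZNF829 was called, at 36916008. The starts of ZNF529 and ZNF382 are annotated 56 bp apart, against 57 bp between their calls.

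Calls lay close to the annotated base in members as in other genes. The offset is the distance of the promoter call from the nearest annotated start, positive downstream. Its median was 0.5 bp in called members (quartiles -1 and 20.5), against 1 bp over all called protein-coding genes (-1 and 19). An offset of at most 10 bp either way was found in 86 of 154 members (55.8%) and in 55.3% of all called genes. At most 50 bp was found in 137 members (89.0%), against 86.9%. The members thus stood near the background in position.

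The exact base was met more often at 2 offsets than at any other. An offset of 0 was found in 27 members (17.5%) and of -1 bp in 28 (18.2%), against 12.2% and 19.5% of all called genes. In the ZNF101 to ZNF254 cluster 5 of 12 called members had an offset of 0, and in the ZNF175 to ZNF331 cluster 9 of 26 had an offset of -1. Only 7 members were beyond 100 bp. ZNF223 had the largest offset, 390 bp, followed by ZNF667 with 266 bp, ZNF524 with 166 bp, ZNF428 with 137 bp and ZNF527 with 107 bp, all downstream. ZNF699 and ZNF653 were called upstream, with offsets of -239 and -134 bp. Several annotated starts were listed for 65 members, and 29 called members were called at a start inside the outer end of the gene.

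Within a cluster most calls kept to the annotation, with a few set apart. In the ZNF554 to ZNF77 cluster ZNF554 was called 18 bp after its start and ZNF57 with an offset of -4 bp. ZNF724 had the largest offset of the ZNF101 to ZNF254 cluster, 66 bp, and ZNF805 that of the ZNF264 to ZNF446 cluster, 45 bp. ZNF792 was called upstream with an offset of -53 bp and ZNF432 with -71 bp, the largest of their clusters. ZNF558 was called 3 bp after an inner start, and ZNF420, known as a regulator of p53, with an offset of -15 bp from one of its 3 starts. ZNF175, ZNF649 and ZNF765 of the ZNF175 to ZNF331 cluster had offsets of 5, -1 and -1 bp, and none of them was paired.

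**Figure D3:**
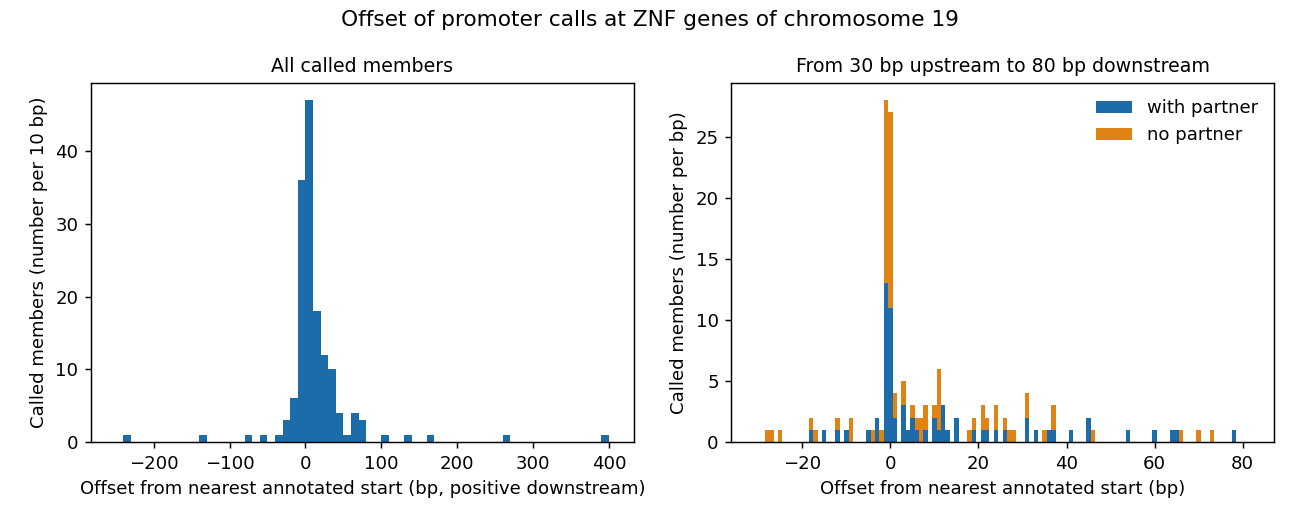
Histograms of the offset of the promoter call from the nearest annotated start (horizontal axes in bp, positive downstream, vertical axes in called members), over the whole range of -239 to 390 bp in bins of 10 bp (left) and per bp near the start, split by pairing (right). The 2 tallest bars of the right plot are offsets -1 (28 members) and 0 (27 members), and both hold paired and unpaired members.

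The most frequent letters at the call were CA, the core of the initiator element. The base at the call and the base after it read CA in 42 of 125 members with a promoter window around the call (33.6%), and in 33.8% of 6757 protein-coding genes. At an offset of -1 they read CA in 22 of 23 members (95.7%) and in 76.6% of the protein-coding genes. At an offset of 0 none of 25 members read CA, and the most frequent letters were GT, in 8 (32.0%). Over all genes, CA began at the called base in 33.0% of forward and 34.8% of reverse calls, against 1.19 to 3.47% for the neighbouring frames. The positions are as deposited. Where CA stood at the call, the deposited position was thus the C, 1 base before the A, on both strands. Whether the caller or the file conversion sets this position is not known, so every offset given here may be displaced by 1 bp. An offset of -1 would then be the annotated base, and an offset of 0 would lie 1 bp after it.

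ZNF714, ZNF431, ZNF430 and ZNF675, all in the ZNF101 to ZNF254 cluster, were called at the same place in the copied promoter. Of 28 promoters of this cluster with a window, 21 held the letters CTTTGTC. That was 7 of the 11 called and 14 of the 17 uncalled members, and 2.3% of all 35116 promoter windows held them on the gene's strand. The call fell on the G in those 4 members. In ZNF714, ZNF431 and ZNF430 that G is the annotated start, and in ZNF675 it lies 35 bp after it. These letters were chosen after the calls were seen. The uncalled ZNF93 and ZNF91 have the same letters with the G at the annotated start, as their printed promoters show.

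The promoters of called members were richer in CpG than those of uncalled members, as in other genes. RefSeq promoter windows, which run 250 bases before to 50 after a start, were matched for 203 members, 134 called and 69 uncalled. Called members had a median GC content of 61.3% and 22 CpG, and uncalled members 57.0% and 16. Over all protein-coding genes, called genes had 66.0% and 28 CpG, and uncalled genes 59.0% and 11. Paired members had a median of 24 CpG and unpaired called members 21. In the ZNF101 to ZNF254 cluster the median was 10 CpG in called and in uncalled members alike, and 55.8% GC over both.

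Few of the called members whose promoters are close copies of another member's were paired. The identity of each window with its most similar counterpart was taken from global alignment over all 203 windows, and its median was 59.4%, against 50.6% over all pairs of windows. The ZNF101 to ZNF254 cluster had a median of 82.3%, and the pair of ZNF714 and ZNF431 the highest identity, 91.0%. In the ZNF565 to ZNF573 cluster the median was 55.4%. Of 53 members with an identity of 70% or more, 29 were called, or 54.7% (41.5 to 67.3), and 5 of those 29 were paired, or 17.2% (7.6 to 34.5). Of 150 members below 70%, 105 were called, or 70.0% (62.2 to 76.8), and 61 of those were paired, or 58.1% (48.5 to 67.1). That last interval reaches the 66.5% paired among all called protein-coding genes. Of the 29, 10 lay in the ZNF101 to ZNF254 cluster and 12 in the ZNF175 to ZNF331 cluster, and none of these was paired. The low share paired among close copies thus rests on these clusters, and close copies are not independent of each other. The limit of 70% was chosen after the values were seen. Whether reads from copied sequence were lost in alignment was not tested.

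The calls at close copies differed between clusters. In the ZNF175 to ZNF331 cluster all 12 members with an identity of 70% or more were called and none was paired. Their median GC content was 65.8%, and their offsets ran between -1 and 26 bp. They include ZNF701 and ZNF845, printed above with an identity of 86.0%, and ZNF765. In the ZNF101 to ZNF254 cluster 10 of 26 such members were called and none was paired. Called members there had a median identity of 81.8% and uncalled members 83.6%. In the ZNF653 to ZNF791 cluster 3 of 11 such members were called and 1 was paired. The other 4 paired close copies lay in the ZNF302 to ZNF792 and the ZNF414 to ZNF846 clusters, where 2 of 2 were called and paired in each.

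**Figure D4:**
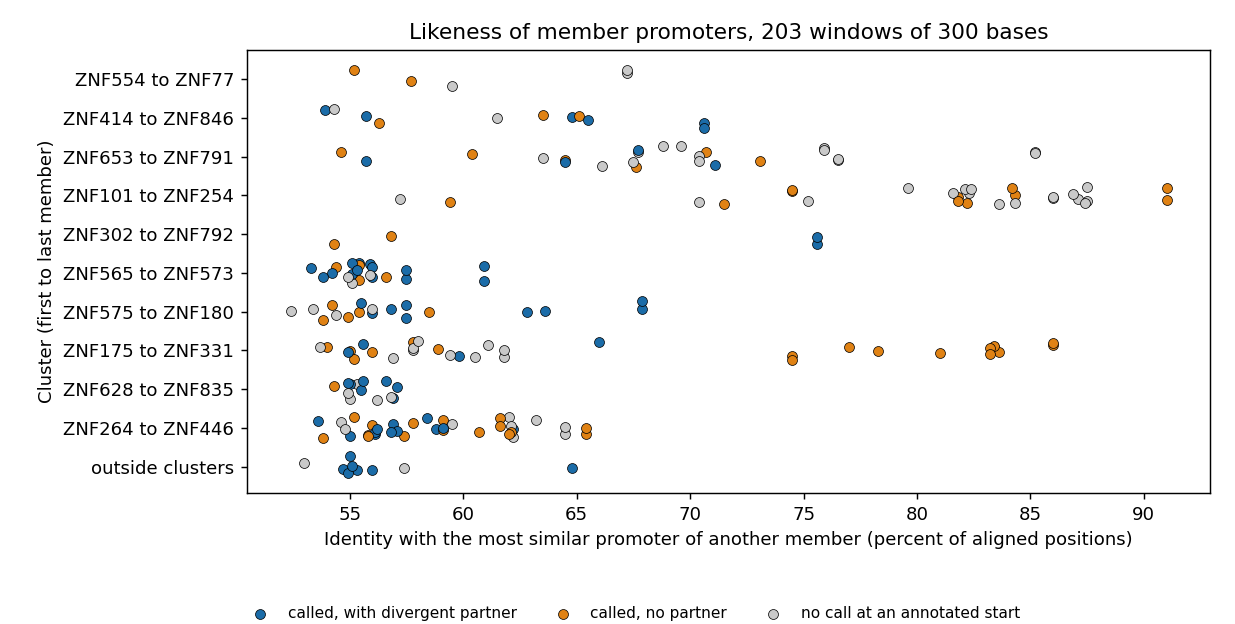
Each dot is 1 of 203 members with a promoter window, placed by its identity in percent with the most similar promoter of another member (horizontal axis) and by cluster (vertical axis, with a small random shift), coloured by call and pairing. Most dots of the ZNF101 to ZNF254 cluster lie above 80%, in grey and orange, and the dots of the ZNF565 to ZNF573 cluster all lie at or below 60.9%, mostly in blue.

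Motifs were counted in the 203 member windows on both strands, with no motif of the set contained in another. Each share is set beside that of 15548 protein-coding genes with a window and that of all 35116 windows. CCAAT, the box bound by NF-Y, was found in all 28 windows of the ZNF101 to ZNF254 cluster and in 91.7% of those of the ZNF653 to ZNF791 cluster. It was found in 53.7% of members, against 36.5% of protein-coding genes and 34.6% of all windows. CCGGAAG, the core of ETS factor sites, was found in 43.8% of members, against 14.5% of protein-coding genes and 10.3% of all windows. Among called genes the shares were 46.3% of members, 24.6% of protein-coding genes and 39.7% of ZNF-number genes on other chromosomes. For CCAAT they were 47.8%, 39.2% and 46.6%. Both motifs were thus about as frequent in called ZNF-number genes elsewhere. The ZNF101 to ZNF254 cluster had CCGGAAG in 71.4% and the ZNF565 to ZNF573 cluster in 13.6%. Windows within a cluster are in part copies of each other and are not independent.

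For GGGCGG, the core of GC boxes, the order turned with the genes compared. It was found in 71.9% of members, against 60.0% of protein-coding genes and 45.0% of all windows, but in 68.7% of called members, against 76.3% of called protein-coding genes. Called ZNF-number genes on other chromosomes had it in 65.6%. GATAA, the core bound by GATA factors such as GATA1, was found in 75.0% of the windows of the ZNF101 to ZNF254 cluster, in 63.6% of its called and 82.4% of its uncalled members. Its share was 25.1% of members, against 17.8% of protein-coding genes and 22.7% of all windows. Among called genes it was 20.9% of members, 12.2% of protein-coding genes and 13.0% of ZNF-number genes on other chromosomes. TATAAA was found in 5 members (2.46%), against 9.5% of protein-coding genes and 11.5% of all windows. Among called genes the shares were close, 3.73% of members, 4.51% of protein-coding genes and 3.05% of ZNF-number genes on other chromosomes. All 5 members with TATAAA were called, against 22.7% of the protein-coding genes that hold it. Whatever the motif, 134 of the 203 members with a window were called. Of the 5, 3 lay in the ZNF101 to ZNF254 cluster, whose promoters are in part copies.

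TGACGTCA was found in 3.45% of members, against 2.68% of protein-coding genes and 1.85% of all windows. The 7 members were all called, and 71.5% of the protein-coding genes that hold it were called. Of all 203 members with a window, 134 were called. Of these members, ZNF266, ZNF426, ZNF121, ZNF561 and ZNF562 make up 5 of the 11 windows of the ZNF414 to ZNF846 cluster, and ZNF543 and ZNF547 lie in the ZNF264 to ZNF446 cluster. AAGATGGCG, which holds the core of YY1 sites, was found in 27.3% of the windows of the ZNF414 to ZNF846 cluster. It was found in 3.45% of members, against 2.93% of protein-coding genes and 1.75% of all windows. CACGTG, the E-box, was found in 3.45% of members, against 8.92% of protein-coding genes and 7.26% of all windows. GCATGCGC was found in 3.45% of members, against 4.45% of protein-coding genes and 3.05% of all windows, and in 2.99% of called members, against 7.41% of called protein-coding genes. Called ZNF-number genes on other chromosomes had it in 8.4%. ACTACAATT was found in 1.97% of members, against 0.502% and 0.336%. Among called genes it was 2.99% of members, 0.792% of protein-coding genes and 2.29% of ZNF-number genes on other chromosomes. A match describes the letters and says nothing of a factor.

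Counted without merging near calls, called members had more than 1 own-strand call about as often as other called genes. Of the 154 called members, 115 had 1 own-strand call between 500 bp before the start and the end of the gene, 35 had 2 and 4 had 3 or more. Calls at the start of an overlapping gene are included. That made 39 members with several calls, or 25.3% (19.1 to 32.7), against 27.7% of called protein-coding genes (26.8 to 28.6), a share within the interval. Called ZNF-number genes on other chromosomes had 25.5% (19.4 to 32.7). The 4 members with 3 or more were ZNF581 with 5 calls, of which 2 are promoter calls of the overlapping ZNF580, and ZNF653, ZNF529 and ZNF790 with 3 each. The largest number over all protein-coding genes was 54.

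Bodies of the members held few calls in the sense direction. Away from annotated starts on the strand of the call, 210 members of known strand held 6 own-strand calls, 0.0962 per 100 kb of gene. They held 34 antisense calls, 0.545 per 100 kb. Antisense calls near a start on the other strand were not excluded, such as that in ZNF181, 262 bp after its start. Over all protein-coding genes of known strand the densities were 0.16 and 0.32 per 100 kb. In members the antisense density per 100 kb stood above this background and the sense density below it, and no interval was computed. The ZNF-number genes on other chromosomes had 0.174 and 0.472 per 100 kb. Members were shorter on average: the 210 spanned 6239 kb, and 15811 protein-coding genes spanned 1057312 kb, with 3384 antisense calls. Counted per gene, members held fewer calls than this background in both directions. An own-strand inner call was found in 2.86% of members, against 7.0% of all genes. These shares were not adjusted for gene length. The finger-coding exon of many members lies at the 3′ end, where ZNF274 is known to bind. Within 500 bp of that end, away from annotated starts on the strand of the call, 0 of 210 members had an own-strand call. There 1 had an antisense call, ZNF324, 298 bp from its end. An own-strand call 179 bp from the end of ZNF580 was left out because it lay at a start of ZNF581. The shares over all genes were 1.08% and 1.32%.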

How the data were processed

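PRO-seq was performed in 3 edited clones and 2 unedited libraries, but the deposited call lists are not split by library and hold 0 columns of other samples. Per the file headers, start sites were called with TSScall on 1 sorted, de-duplicated alignment. The score column, as deposited, held 0 for each of the 28283 calls, which leaves them unranked and the depth unknown. The submitters' processing notes name hg38, BWA 0.7.16a, Picard, SAMtools 1.17 and deepTools 3.5.4, while for TSScall neither version nor read minimum is given in the sources used here. The end coordinate of each 1-base interval served as the 1-based position.

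Starts and strands came from the RefSeq promoter table (210 members). The other 30 members had no strand there, and for them a forward call at the left end or a reverse call at the right end counted. The same rule was used for all genes. Members, lists and comparisons were chosen with earlier results of these data known. By rule, named members were per cluster those with the most own-strand calls and the largest and smallest offsets, those paired at another protein-coding gene's start, and a list of well-studied members; other names were chosen after their values were seen. Shares carry Wilson 95% intervals and no test was made. For promoter letters, the window of the annotated start nearest the call was used, or the outermost window for uncalled members. Called genes with no window at that exact start were left out. Of 141 called members with a tabulated strand, 134 were kept, beside 69 uncalled members, none of which was left out for this reason. Protein sequences were not analysed here. On 200 genes with simulated calls the rules found 100.0% of starts and the right pairing in 99.5%. These calls were planted well inside the windows, with no other calls, so their recovery was fixed by design. Another 15 genes were called from the planted calls. The run checks the code and says nothing of the accuracy of the real calls. Alternatives changed windows, gaps, the strand rule and merging. Biopython 1.88 made the alignments, pandas 2.3.3 and numpy 2.4.6 the counts and intervals and matplotlib 3.10.9 the plots, under Python 3.11.15.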

Additional observations from a re-analysis of the deposited data

How the results depend on the processing

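Ignoring strand and inner starts, so that a forward call at the left end or a reverse call at the right end counted, gave 57.5% of members called, against 42.2% of all protein-coding genes. Counting own-strand calls within 500 bp of each other as 1 left 13.0% of called members with several calls, against 18.9% of all called genes; the cause was not tested in either case beyond the rule itself, which drops inner starts or merges calls. The share called otherwise ran between 61.2% (window of 100 bp, 42.5% for all genes) and 66.2% (any own-strand call in the gene, 49.4%). The share paired was 46.8% at 500 bp and 47.4% at 2000 bp. Settings chosen after seeing the data gave 67.1% called with genes of tabulated strand only, 70.0% called and 51.4% paired without the ZNF101 to ZNF254 cluster. All 40 cluster shares scored under other windows and gaps stayed within their intervals, but a changed gap also changed which members were scored. With a gap of 250 kb there were 12 clusters, and the ZNF101 to ZNF254 cluster was split. The part scored had 36.0% called. Another part, ZNF101 to ZNF486, had the lowest share, 1 of 8 members (12.5%), below the interval of the whole cluster (19.6 to 48.5). With 1000 kb there were 9, and the ZNF628 to ZNF835 and ZNF264 to ZNF446 clusters were merged, so the same 73.7% was scored for both. No paired analysis was possible because the call lists have no column per library, and for the same reason no library could be left out. Depth is unknown, so an uncalled gene is not shown to be silent.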
